A study of Mus musculus with 6 samples.

Results

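Histone genes of the replication-dependent clusters and of the linker histone family were examined in B16-F1, a melanoma cell line from C57BL/6J mice. The members were the genes whose current symbol is of the form H2ac, H2bc, H3c, H4c or H1f followed by a number, read from probe sets that the platform annotation assigns to a single gene. Of 18193 genes with such a probe set, 13 matched, and each was represented by the brightest of its probe sets. They were the linker histone genes H1f2, H1f4, H1f6, H1f7, H1f8 and H1f10, the H2A gene H2ac19, the H2B genes H2bc18, H2bc21 and H2bc22, and the H3 genes H3c4, H3c7 and H3c11. All cells stably expressed a short hairpin RNA (shRNA) from a lentivirus and were grown in DMEM with fetal bovine serum. The control line had a hairpin to GFP, and the knockdown lines had one to macroH2A1 or one to macroH2A2. Each of the 3 lines was represented by 2 one-colour Affymetrix arrays of biological replicates. The labels describe 1 hairpin line per target and no second hairpin, so that the effect of a target and that of a single line cannot be told apart.

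In the nucleosome, DNA is wrapped around an octamer of H2A, H2B, H3 and H4, and linker histones of the H1 family bind where the DNA enters and leaves it. The genes of the large clusters are transcribed mainly during S phase, when newly made DNA has to be packed, and their mRNAs end in a conserved stem-loop instead of a poly(A) tail. MacroH2A proteins belong to the other kind, the replacement variants, which are also made outside S phase and mostly from polyadenylated mRNAs. MacroH2A takes the place of ordinary H2A in part of the chromatin. The RNA was labelled from a poly(dT) primer, per the labels' protocols, so the signal of a gene whose mRNA lacks a poly(A) tail need not follow the amount of that mRNA. Signals are given in the linear units of the deposited values, and because probe sets differ in how they bind, signals of different probe sets do not rank the transcripts.

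The reference gene table (RefSeq, GRCm38.p6) lists 67 protein-coding mouse genes of these families, and the array reached them unevenly. Single-symbol probe sets covered 6 of 10 H1 genes, 1 of 17 H2A genes, 3 of 16 H2B genes, 3 of 12 H3 genes and 0 of 12 H4 genes. A further 41 genes were named only on probe sets listed for several genes, and 13 were not analysed here. The core histone genes are near-identical copies, and 5 of the 13 members (H2ac19, H2bc22, H3c4, H3c7 and H3c11) are also listed for a shared probe set, so their own signals may include RNA of other copies. A mean signal above 10 over the 6 arrays was reached by 10 of the 13 members, namely 4 of 6 H1, 1 of 1 H2A, 3 of 3 H2B and 2 of 3 H3 genes. The member nearest above this limit was H1f7 with a mean of 10.8, and the nearest below it was H1f4 with 5.43. The same 10 members passed the filter on low signals, a mean of 10.4, and were tested. H1f7 passed it only through its control arrays, with group means of 15.6 (control), 8.9 (macroH2A1 shRNA) and 7.95 (macroH2A2 shRNA), so counts and medians over the tested members describe those members only.

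The sequences before the genes show what the members share apart from their symbol. Promoters, taken as 250 bases before to 50 bases after the transcript start, came from RefSeq on GRCm38.p6 and were found for 11 of the 13 members. For all genes of these families the table held 63 promoters of 62 genes, since H2bc6 has 2 entries. The first 3 shown belong to the linker histone genes: H1f2 at chr13:23738557-23738856 on the plus strand, H1f4 at chr13:23622509-23622808 on the minus strand and H1f10 at chr6:87981433-87981732 on the minus strand. H2bc18 at chr3:96269450-96269749 on the plus strand stands for the H2B genes with a probe set of their own. H2bc8 at chr13:23571150-23571449 on the plus strand belongs to the genes of a bright shared H2B probe set described later. Each is printed 5′ to 3′ along the gene's strand, and capitals mark every match, on either strand, to 4 motifs: TATAA of the TATA box, CCAAT of the CCAAT box, AAACACA of the H1 box that linker histone promoters are known for, and ATTTGCAT, the octamer known from H2B promoters.
H1f2: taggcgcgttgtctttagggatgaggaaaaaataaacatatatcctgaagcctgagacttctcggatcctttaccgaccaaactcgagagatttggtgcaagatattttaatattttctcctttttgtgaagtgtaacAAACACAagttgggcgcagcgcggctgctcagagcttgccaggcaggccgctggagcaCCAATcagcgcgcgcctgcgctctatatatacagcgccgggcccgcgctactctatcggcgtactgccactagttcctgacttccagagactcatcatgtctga
H1f4: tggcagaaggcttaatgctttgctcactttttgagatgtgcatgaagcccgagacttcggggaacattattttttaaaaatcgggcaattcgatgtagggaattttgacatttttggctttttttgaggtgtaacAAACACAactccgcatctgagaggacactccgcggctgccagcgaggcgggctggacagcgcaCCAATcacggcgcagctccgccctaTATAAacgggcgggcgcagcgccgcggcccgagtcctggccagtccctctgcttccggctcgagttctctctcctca
H1f10: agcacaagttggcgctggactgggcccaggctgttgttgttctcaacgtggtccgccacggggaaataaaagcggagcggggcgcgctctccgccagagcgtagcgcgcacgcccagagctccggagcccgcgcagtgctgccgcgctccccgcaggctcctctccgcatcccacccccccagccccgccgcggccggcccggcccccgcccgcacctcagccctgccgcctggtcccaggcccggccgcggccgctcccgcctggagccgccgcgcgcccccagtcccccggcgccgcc
H2bc18: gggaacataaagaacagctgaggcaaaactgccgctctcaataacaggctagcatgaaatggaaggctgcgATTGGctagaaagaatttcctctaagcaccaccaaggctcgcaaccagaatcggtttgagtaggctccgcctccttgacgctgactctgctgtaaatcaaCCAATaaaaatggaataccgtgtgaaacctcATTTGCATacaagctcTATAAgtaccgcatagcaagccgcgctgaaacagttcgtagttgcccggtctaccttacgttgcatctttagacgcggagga
H2bc8: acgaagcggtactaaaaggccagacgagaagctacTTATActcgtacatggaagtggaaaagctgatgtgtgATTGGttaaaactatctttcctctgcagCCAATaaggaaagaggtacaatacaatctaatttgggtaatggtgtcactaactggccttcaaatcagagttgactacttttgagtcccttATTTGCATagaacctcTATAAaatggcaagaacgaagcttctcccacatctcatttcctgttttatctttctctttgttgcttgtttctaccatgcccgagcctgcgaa
No match of 1 motif overlapped a match of another in these 5 windows. Counted from the transcript start, the H1 box began at -112 in H1f2 and at -115 in H1f4, and CCAAT at -54 in H1f2 and at -52 in H1f4. H1f10, a linker histone gene known to be expressed outside S phase and from a polyadenylated mRNA, held no match to any of the 4. In H2bc18 the octamer began at -48 and TATAA at -32, and in H2bc8 the octamer began at -59.

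Across the families, AAACACA was found in 50% of the 10 H1 promoters (H1f2, H1f3, H1f4, H1f5 and H1f6), against 7.18% of all 32851 promoters of that length. It was also found in 11.8% of 17 H2A and 13.3% of 15 H2B promoters, and in 0% of the H3 and H4 promoters. The octamer was found in 46.7% of 15 H2B promoters, in 35.3% of 17 H2A promoters and in 0% of the H1, H3 and H4 promoters, against 1.74% of all promoters. Windows of neighbouring H2A and H2B genes on opposite strands can overlap. The windows of H2ac1 and H2bc1, of H2ac8 and H2bc8, and of H2ac12 and H2bc12 hold the same octamer, counted in both families. The H2A and H2B shares are therefore not independent, and other motifs in such windows are also counted in both. CCAAT occurred in 82.5% of the 63 histone promoters and in 37.4% of all promoters. By family it was in 100% of H2A, H2B and H3 promoters but in 27.3% of 11 H4 promoters. TATAA occurred in 73.0% of the histone promoters and in 24.9% of all promoters. These matches describe the letters in the windows and nothing about binding, which was not measured.

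The arrays were first checked against their labels. Macroh2a1, the gene targeted in the first line, had signals of 1212.7 and 1262.4 in the control arrays, 444.2 and 319.1 in the macroH2A1 shRNA arrays and 1271.2 and 1170.5 in the macroH2A2 shRNA arrays. Macroh2a2 read 6.1 and 7.5 on the control arrays, 3.5 and 2.0 on the macroH2A1 shRNA arrays and 11.9 and 8.3 on the macroH2A2 shRNA arrays, with a mean of 6.55 that left it out of the test. Its signal was thus highest, without overlap, in the line labelled as its knockdown. Against the control line the log2 difference was 0.19 (SE 0.16, fit with no filter). Of all tested probe sets, 13.0% were higher than in the control line without overlap. Readings this dim do not bear out the label and cannot decide whether the target was reduced. Directions drawn from the library labelled macroH2A2 shRNA therefore rest on the label alone. The summed signal of 7 melanocyte markers lay between 32710 and 42000 per array, with all 7 above a signal of 10. Of the other cell types looked for, 2 of 6 fibroblast markers lay above 10, with a summed signal from 105.2 to 178.5 (highest on control replicate 1), and 3 of 7 leukocyte markers, with a summed signal from 63.9 to 89.7. Keratinocyte and endothelial markers each had 1 of 4 above 10, with sums from 24.0 to 36.5 and from 24.7 to 43.3. The 2% trimmed mean was 150.0 on every array, so any change in total RNA per cell had been scaled away. The median signal still differed, at 24.5 on control replicate 1 and between 15.1 and 20.6 on the other arrays. The ratio of 3′ to 5′ probe sets of Gapdh lay between 0.809 and 0.841. The mean 18S rRNA signal lay between 946.9 and 1064 on the replicate 1 arrays and between 643.5 and 719.0 on the replicate 2 arrays, and its part in the results below was not tested.

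H1f2, which encodes the somatic linker histone H1.2, had signals of 1073.7 and 1263.7 in the control arrays, 511.5 and 965.2 in the macroH2A1 shRNA arrays and 456.1 and 1376.0 in the macroH2A2 shRNA arrays. Its group means were 1169 ± 134, 738 ± 321 and 916 ± 650.5 (SD, n = 2 each). Both macroH2A1 shRNA arrays therefore lay below both control arrays, while the macroH2A2 shRNA arrays lay on either side of them. The replicate 1 array was below the replicate 2 array in all 3 lines, with a replicate 1 minus replicate 2 difference (log2) of -0.23 among control arrays, -0.90 among macroH2A1 shRNA arrays and -1.56 among macroH2A2 shRNA arrays. A second bright probe set for H1f2 read 845.8 and 908.7 on the control arrays, 454.6 and 528.9 on the macroH2A1 shRNA arrays and 356.8 and 683.4 on the macroH2A2 shRNA arrays. On that probe set all 4 knockdown arrays lay below both control arrays. Of all tested probe sets, 14.9% (macroH2A1 shRNA) and 16.2% (macroH2A2 shRNA) lay below the control line without overlap. The share lower in both was not computed. The remaining, dim probe set for the gene lay between 8.3 and 32.1, and on it the macroH2A2 shRNA arrays overlapped the control arrays.

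The other linker histone genes were dim. H1f10, which encodes H1X, read 37.2 and 30.2 on the control arrays, 38.1 and 27.0 on the macroH2A1 shRNA arrays and 33.5 and 35.1 on the macroH2A2 shRNA arrays, and all groups overlapped. H1f6, the testis linker histone H1t, read 22.8 and 20.2, then 22.2 and 8.5, then 23.1 and 13.5 in the same order of lines. H1f7, a linker histone of spermatids, read 14.7 and 16.5 on the control arrays, 10.7 and 7.1 on the macroH2A1 shRNA arrays and 5.2 and 10.7 on the macroH2A2 shRNA arrays. For H1f7 both knockdown lines lay below the control line without overlap, at signals near the filter on low values. H1f4, which encodes the somatic H1.4, read 7.5 and 3.8 on the control arrays, 8.9 and 9.3 on the macroH2A1 shRNA arrays and 0.7 and 2.4 on the macroH2A2 shRNA arrays. H1f8, the oocyte linker histone, lay between 0.7 and 5.4 on all arrays.

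The 1 H2A gene with a probe set of its own, H2ac19, read 33.2 and 46.1 on the control arrays, 35.5 and 58.7 on the macroH2A1 shRNA arrays and 37.1 and 50.8 on the macroH2A2 shRNA arrays, with overlap between all groups. Its second probe set, at 44.3 and 43.5, then 30.6 and 38.9, then 23.3 and 55.4, gave differences of the opposite sign against the control line in both knockdown lines.

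Among the H2B genes, H2bc21 was the brightest by its own probe set, and it encodes an H2B variant known in the mouse from olfactory neurons and from polyadenylated mRNA. It read 316.9 and 220.0 on the control arrays, 163.1 and 173.6 on the macroH2A1 shRNA arrays and 122.0 and 203.0 on the macroH2A2 shRNA arrays. Its group means were 268 ± 68.5, 168 ± 7.42 and 162.5 ± 57.3 (SD, n = 2 each). All 4 knockdown arrays lay below both control arrays, where 14.9% and 16.2% of all tested probe sets were lower without overlap in the single comparisons. A second probe set for H2bc21, at 117.4 and 66.6, then 48.9 and 50.5, then 35.3 and 64 in the same order of lines, also placed all 4 below both control arrays. H2bc22 read 26.5 and 22.8 on the control arrays, 16.5 and 41.1 on the macroH2A1 shRNA arrays and 13 and 27.6 on the macroH2A2 shRNA arrays. H2bc18 read 18.4 and 9.8, then 13.2 and 13, then 12.4 and 12.1. For H2bc22 and H2bc18 the control arrays overlapped both knockdown lines.

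H3c7, an H3.2 gene, read 52.3 and 61.1 on the control arrays, 68.2 and 30 on the macroH2A1 shRNA arrays and 44.9 and 34 on the macroH2A2 shRNA arrays. The macroH2A2 shRNA arrays lay below both control arrays, whereas the macroH2A1 shRNA arrays spanned them. H3c4, also an H3.2 gene, read 13.6 and 13.3, then 7.3 and 11.7, then 18.1 and 9.6, so that only the macroH2A1 shRNA arrays were both below the control line. H3c11, an H3.1 gene, lay between 1.1 and 8.8 on all arrays and was not tested.

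**Figure D1:**
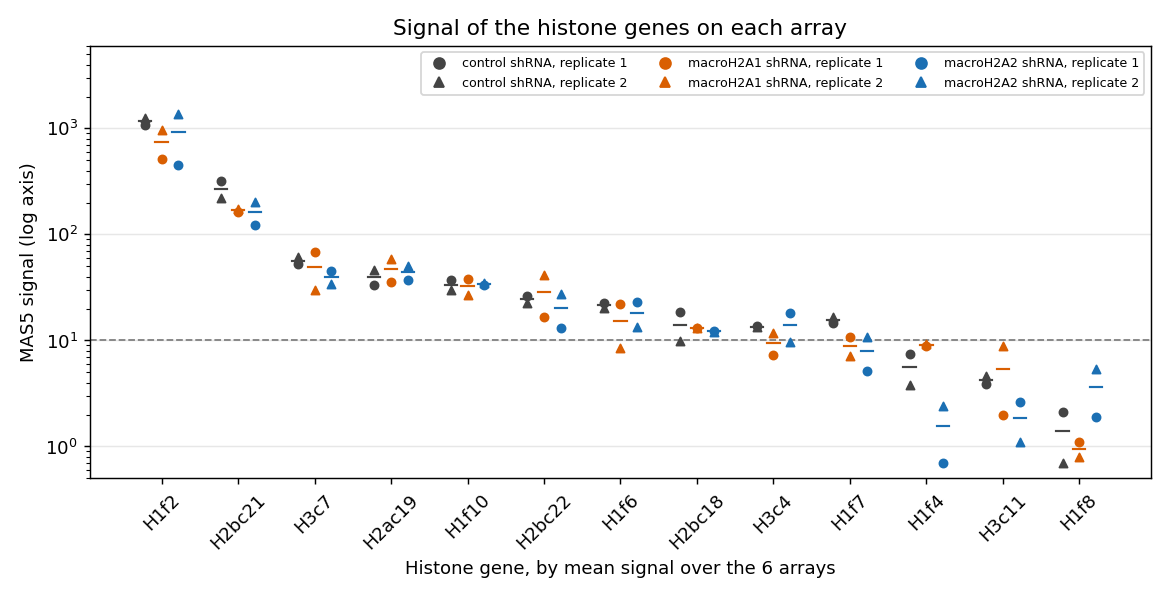
Signal of the 13 histone genes on each of the 6 arrays, on a log axis in the units of the deposited values, with circles for replicate 1, triangles for replicate 2, colours for the shRNA lines, short bars at the group means and a dashed line at a signal of 10. H1f2 and H2bc21 stand highest in the control line by group mean, and the spread between replicate arrays of H1f2 is widest in the macroH2A2 shRNA line.

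Each knockdown line was then compared with the control line. Of the 10 tested members, 8 had a lower and 2 a higher mean log2 signal in the macroH2A1 shRNA line. Over all tested genes 51.8% were lower. H1f7 is among the 8 and in the medians, although its high control arrays alone carried it past the filter. An adjusted p of 0.05 (limma, Benjamini-Hochberg over 27025 probe sets) was passed by 0 members, where the share of all tested probe sets that passed was 0.0%. Without the replicate number as a block, an unadjusted p under 0.05 was found for 1 member, H2bc21, against 4.4% of all tested probe sets. H2bc21 differed by -0.61 (SE 0.26, limma adjusted p = 0.9999), which is 1.52-fold lower, with a 95% interval whose upper end was -0.0010. H1f2 differed by -0.71 (SE 0.47) with an interval from -1.81 to 0.38, and its second bright probe set by -0.82 (SE 0.27, limma adjusted p = 0.980). With the block the SE was smaller, at 0.23 for H1f2 (limma adjusted p = 0.3524) and 0.19 for its second bright probe set (limma adjusted p = 0.1345). For H2bc21 the SE with the block was 0.23 (limma adjusted p = 0.4517). H1f7 differed by -0.35 (SE 0.26), H1f6 by -0.29 (SE 0.30), H3c7 by -0.22 (SE 0.31) and H3c4 by -0.21 (SE 0.27), each with an interval that included 0. Folds are on the log2(signal + 16) scale, which understates those of dim genes. The groups did not overlap, with the knockdown lower, for H1f2, H2bc21 and H3c4, where 14.9% of all tested probe sets did so, and 0 members had the knockdown higher, where 13.0% did. H1f7 also did so but is not counted, since its high control arrays alone carried it past the filter, and the macroH2A1 shRNA mean of H3c4 (9.5) was below the filter as well.

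The median difference of the 10 members was -0.22, against -0.0097 over all 12088 tested genes. It was -0.22 between the replicate 1 arrays and -0.21 between the replicate 2 arrays. Over all 13 members with no filter, 9 were lower and the median was -0.04, against -0.0175 over 18193 genes. With the replicate number as a block the count of members past the threshold was also 0, where 0.192% of probe sets passed. In that fit H1f2 stayed at -0.71 without macroH2A2 shRNA replicate 1 and without macroH2A2 shRNA replicate 2. Those arrays enter this comparison only through the shared spread. The differences depended on single arrays of the lines that were compared. H1f2 was at -0.27 without macroH2A1 shRNA replicate 1 and at -1.16 without macroH2A1 shRNA replicate 2. With the block it was at -0.22 without control replicate 1 and at -1.21 without control replicate 2. H2bc21 was at -0.36 without control replicate 1 (-0.17 with the block), and with the block at -1.04 without control replicate 2.

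The line labelled macroH2A2 shRNA, whose label its dim target did not bear out, was compared with the control line in the same way. Of the 10 tested members, 7 had a lower and 3 a higher mean log2 signal, with H1f7 again among the lower. Over all tested genes 52.5% were lower. The threshold was passed by 0 members (limma), where the share over all tested probe sets was 0.0%. This comparison shares its control arrays with the one before. Without the block, an unadjusted p under 0.05 was again found for 1 member, H2bc21, against 3.98% of all tested probe sets. H2bc21 differed by -0.69 (SE 0.26, limma adjusted p = 1), which is 1.61-fold lower, with an interval from -1.29 to -0.0851. Its difference was -1.27 between the replicate 1 arrays and -0.11 between the replicate 2 arrays. H1f2 differed by -0.54 (SE 0.47, interval -1.63 to 0.55), made up of -1.21 between the replicate 1 arrays and 0.12 between the replicate 2 arrays, and its second bright probe set by -0.81 (SE 0.27, limma adjusted p = 1). With the block the SE was 0.23 for H1f2 (limma adjusted p = 0.518) and 0.19 for its second bright probe set (limma adjusted p = 0.1485). For H2bc21 the SE with the block was 0.23 (limma adjusted p = 0.3672). Without the block, H1f7 differed by -0.41 (SE 0.26) and H3c7 by -0.40 (SE 0.31). The groups did not overlap, with the knockdown lower, for H2bc21 and H3c7, where 16.2% of all tested probe sets did so, and for 0 members in the other direction, where 13.0% did. H1f7 also did so and is again not counted.

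The median over the 10 members was -0.17, against -0.0127 over all tested genes, and it was -0.22 between the replicate 1 arrays but -0.0013 between the replicate 2 arrays. It was -0.11 without control replicate 1 and -0.27 without control replicate 2. Over all 13 members with no filter it was -0.18, with 9 lower. With the replicate block 0 members passed, where 0.144% of probe sets did. In that fit, leaving out macroH2A2 shRNA replicate 2 gave H1f2 a difference of -1.04 and H2bc21 one of -1.13. Leaving out macroH2A2 shRNA replicate 1 gave -0.0445 for H1f2 and -0.25 for H2bc21. Leaving out control replicate 1 gave -0.0448 and -0.25. Without the block, H1f2 was at 0.24 without macroH2A2 shRNA replicate 1 and at -1.32 without macroH2A2 shRNA replicate 2, and H2bc21 at -0.36 without macroH2A2 shRNA replicate 1 and at -0.44 without control replicate 1.

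**Figure D2:**
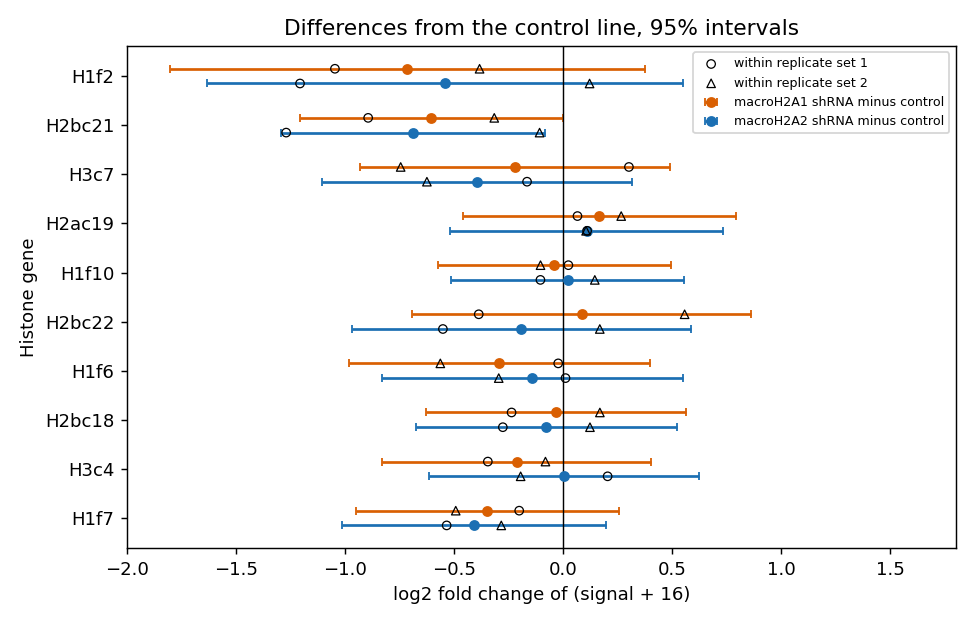
Log2 difference of each tested histone gene from the control line, on the log2(signal + 16) scale, with a filled point and 95% interval of the limma fit for each knockdown line and open symbols for the differences within replicate 1 (circles) and replicate 2 (triangles). In the fit without the replicate block, H2bc21 is the gene whose intervals against the control line lie wholly below 0 in both knockdown lines, before adjustment over all probe sets.

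The lines labelled as knockdowns were compared directly with each other. Between them 6 members were lower and 4 higher in the macroH2A2 shRNA line, where 50.1% of all tested genes were lower. The threshold was passed by 0 members without the block (limma, 0.0% of all tested probe sets) or with it (0.0037%). An unadjusted p under 0.05 was reached by 0 members, where 2.73% of all tested probe sets reached it. The median was -0.05. H1f2 differed by 0.17 (SE 0.47, interval -0.92 to 1.26) and H2bc21 by -0.08 (SE 0.26, interval -0.69 to 0.52), and the members with the smallest unadjusted p were H2bc22 at -0.28 (SE 0.34) and H3c4 at 0.22 (SE 0.27). The groups were apart for 1 member, H2bc18, lower in the macroH2A2 shRNA line by -0.04, where 14.6% of probe sets were lower without overlap, and 0 members were higher, where 13.3% were. By array, macroH2A2 shRNA replicate 1 was the lowest of the 6 for 4 of the 10 members, and macroH2A2 shRNA replicate 2 for 0.

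Probe sets listed for several histone genes read the clusters jointly. There were 17 of them, 9 with a mean signal above 10, and they reached the H4 family, which had no probe set of its own. A probe set for H2bc4, H2bc6 and H2bc8, core H2B genes, read 1156.2 and 956.3 on the control arrays, 863.8 and 632.5 on the macroH2A1 shRNA arrays and 530.3 and 622.0 on the macroH2A2 shRNA arrays. A probe set listed for 11 genes, mostly H2B, read 965.1 and 734.6, then 652.3 and 537.8, then 391.5 and 492.1 in the same order. On both of them the groups ran in 1 order without overlap, with the control line highest and the macroH2A2 shRNA line lowest. Of all tested probe sets, 14.9% (macroH2A1 shRNA) and 16.2% (macroH2A2 shRNA) lay below the control line without overlap. Between the knockdown lines, 14.6% were lower without overlap in the macroH2A2 shRNA line. The share that ran in this full order was not computed. As they share genes and may bind the same transcripts, they are not independent measurements.

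The H2bc4, H2bc6 and H2bc8 probe set differed from the control line by -0.50 (SE 0.19) after macroH2A1 shRNA and by -0.85 (SE 0.19, limma adjusted p = 0.724) after macroH2A2 shRNA. The 11-gene probe set differed by -0.50 (SE 0.19) and by -0.92 (SE 0.19, limma adjusted p = 0.724), and its difference between the knockdown lines was -0.42 (SE 0.19). With the replicate block, the adjusted p of the macroH2A2 shRNA comparison was 0.0822 and 0.0819 for these probe sets. Over the 21 settings run, the macroH2A2 shRNA difference ran from -1.14 to -0.57 and from -1.24 to -0.59, in the same order. The macroH2A1 shRNA difference ran from -0.72 to -0.28 and from -0.70 to -0.29. Between the knockdown lines the difference of the 11-gene probe set ran from -0.74 to -0.10.

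A probe set listed for 10 H2A genes read 49.0 and 46.6 on the control arrays, 30.5 and 27.2 on the macroH2A1 shRNA arrays and 38.9 and 27.5 on the macroH2A2 shRNA arrays, and differed by -0.51 (SE 0.23) and -0.38 (SE 0.23). All 4 knockdown arrays were below both control arrays, where 14.9% and 16.2% of all tested probe sets were lower without overlap in the single comparisons. The H3 and H4 probe sets showed smaller differences. One for 12 H3 genes read 104.3 and 98.3, then 102.1 and 86.3, then 84.3 and 84.6, a difference of -0.09 with macroH2A1 shRNA and -0.22 with macroH2A2 shRNA, where the last pair lay below the other arrays. The brighter of the H4 probe sets, listed for 13 genes, read 69.6 and 81.5, then 49.6 and 73.7, then 65.7 and 104.6, differing by -0.25 and 0.12. The other, at 40.2 and 41.7, then 40.6 and 38.5, then 43.3 and 40.3, differed by -0.04 and 0.02. Over the 9 shared probe sets, 0 passed the threshold in any of the 3 comparisons (limma, no block), where 0.0% of all tested probe sets did. Without the block, an unadjusted p under 0.05 was found for 2, 2 and 0 of them, against 4.4%, 3.98% and 2.73% of all tested probe sets. Both times the 2 were the bright H2B probe sets, which share genes and are not independent. The 3 shared probe sets not yet given, for H2A, H2B and H3 genes, lay between 8.5 and 47.3 with overlapping groups. With macroH2A1 shRNA 8 of 9 were lower than in the control line (median -0.16), and with macroH2A2 shRNA 5 of 9 (median -0.18). Over all tested genes 51.8% and 52.5% were lower. Several of the 9 list the same genes, so they are not separate readings.

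**Figure D3:**
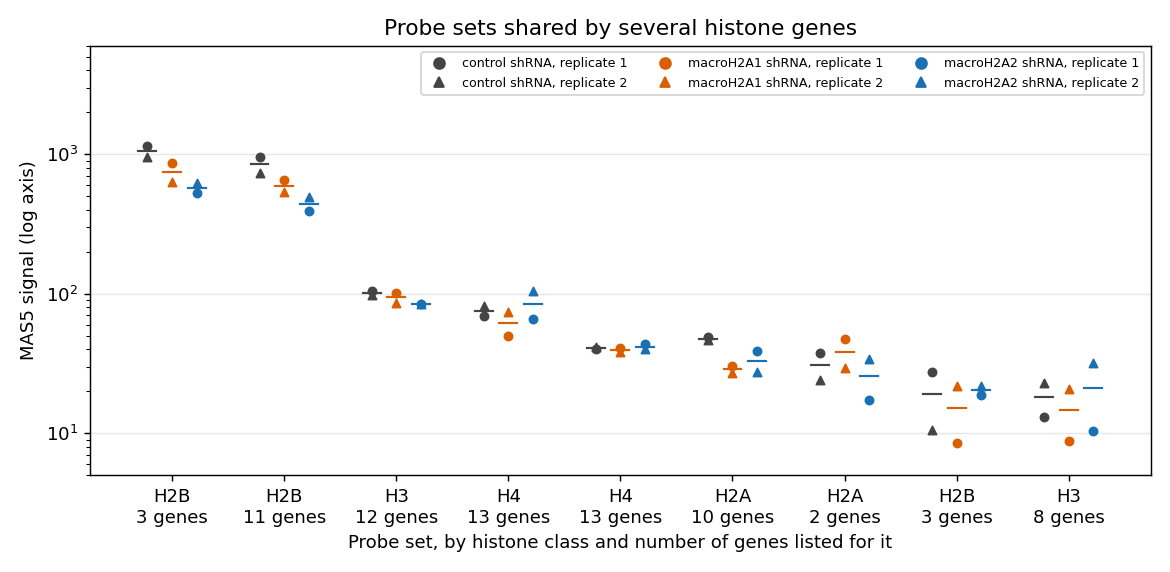
Signal of the 9 tested probe sets listed for several histone genes on each of the 6 arrays, on a log axis in the units of the deposited values, labelled by histone class and number of genes, with short bars at the group means. The brightest H2B probe sets step down from the control line to the macroH2A1 shRNA line to the macroH2A2 shRNA line, while the H4 probe sets do not.

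Genes that make, process or handle histones were read for comparison, and as 0.0% of all tested probe sets passed without the block, the counts of 0 below do not set them apart. Among 20 tested genes for transcription and 3′ end processing of histone mRNA, 0 rose and 0 fell in either knockdown line (limma, no block), with medians of 0.0001 and -0.0060 and 10 of 20 higher than in the control line in both. Examples are Ncbp2, a cap-binding subunit, at 0.16 and 0.36, and Ccne2, a cyclin E, at -0.56 and -0.01, with the macroH2A1 shRNA value first here and in the rest. Among 23 chaperone and assembly genes, 0 rose and 0 fell, with medians of 0.10 and 0.07 and 18 and 16 of them higher. Over all tested genes the medians were -0.0097 and -0.0127, with 51.8% and 52.5% lower. Between the replicate 1 arrays the chaperone median of the macroH2A2 shRNA line was 0.16, and between the replicate 2 arrays it was -0.07. Asf1a, which carries H3 and H4, was at 0.30 and 0.54, and Daxx, an H3.3 chaperone, at -0.31 and -0.47. Among 24 S phase genes, 0 rose and 0 fell, with 21 higher and 3 lower in the macroH2A1 shRNA line, 17 higher and 7 lower in the macroH2A2 shRNA line, and medians of 0.11 and 0.05. For the macroH2A2 shRNA line the median of the S phase genes was 0.39 between the replicate 1 arrays and -0.28 between the replicate 2 arrays. Gins1, of the replicative helicase, was at 0.21 and 0.36.

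Of 8 tested replacement variants, 0 rose and 0 fell without the block, with medians of -0.0082 and 0.01. With the block, in the macroH2A1 shRNA line, Macroh2a1 fell by 1.67 on the log2 scale (SE 0.17 without the block, adjusted p = 0.00120 with it and 0.123 without it). H2ax, the variant phosphorylated at DNA breaks, read 414.4 and 390.6 on the control arrays, 231.8 and 283.2 on the macroH2A1 shRNA arrays and 271.9 and 299.4 on the macroH2A2 shRNA arrays. All 4 knockdown arrays were below both control arrays, with differences of -0.62 (SE 0.16) and -0.47, neither past the threshold. Of all tested probe sets, 14.9% and 16.2% were lower without overlap in the single comparisons, which share their control arrays. The share lower in both was not computed. H2az1, which encodes H2A.Z, was at 0.20 and 0.18.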

How the data were processed

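The deposited values were linear array intensities for each probe set, which the authors computed by MAS5, per the submitters' processing notes (version not given in the sources used here). Of 45101 probe sets, 64 controls were left out, and the platform annotation gave 1 symbol to 34945, several to 932 and none to 9160. No genome build for the array is given in the sources used here, and coordinates are those of the RefSeq promoters on GRCm38.p6.

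Intensities were analysed as log2(signal + 16). Probe sets with a mean signal at or above the 40th percentile (10.4) were tested, 27025 in all. One fit in limma 3.58.1 (R 4.3.3; eBayes with trended variance; 3 group means, 3 residual degrees of freedom) gave the 3 contrasts, called when the two-sided p, adjusted by Benjamini-Hochberg, was under 0.05. Intervals are 95%. The procedure was tested on simulated data with planted differences larger than any of the histone genes and with no replicate effect. That test does not cover differences of the size seen here. Alternatives were the pseudocount, the filter, the scaling, the replicate block and leaving out each array.

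The series' design states that replicates are biological. Replicate 1 minus replicate 2 differences correlated between lines with 0.576, 0.372 and 0.415, so same-numbered arrays were treated as paired in the block. The number of arrays limits the precision.

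Members and lists were chosen with earlier results of these data known. Values per array are given for the 10 brightest members, every H1 member above a signal of 10, any member past the threshold with or without the block, and the 5 with the smallest unadjusted p per contrast. H1f4 and the tested shared probe sets were added, the former after its values were seen. Up to 4 genes per further list were eligible, by smallest p over both knockdown lines.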

Additional observations from a re-analysis of the deposited data

Results flagged for a closer look

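H1f4, the gene of linker histone H1.4, stood on opposite sides of the control line in the knockdown lines. Both macroH2A1 shRNA arrays (8.9 and 9.3) lay above both control arrays (7.5 and 3.8), and both macroH2A2 shRNA arrays (0.7 and 2.4) lay below them. On the log2(signal + 16) scale the macroH2A2 shRNA line minus the macroH2A1 shRNA line was -0.52, given as a description. The gene lay below the filter of the main fit, and no p is given from the fit with no filter, since the gene was named for these values. Of all tested probe sets, 13.0% were higher than in the control line without overlap in the macroH2A1 shRNA line. In the macroH2A2 shRNA line 16.2% were lower without overlap. All 6 signals were under 10, which leaves the size of the difference uncertain.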

How the results depend on the processing

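Under both fits and every setting with all 6 arrays, 0 members passed the threshold in the 3 comparisons, and the fit with the replicate block also gave 0, 0 and 0. Leaving out 1 array leaves 1 array in a line, so those fits are described by their differences only. For macroH2A1 against control the median of tested members was -0.40 with a pseudocount of 1, -0.0945 with 64, -0.0397 with no filter (with and without the block), -0.41 with a 60th percentile filter that left 4 members, -0.12 after quantile normalization (with and without the block) and -0.15 with arrays centred on the median. Leaving out 1 array gave -0.24 to -0.17, and -0.33 to -0.14 with the block. For macroH2A2 against control the median was -0.31 and -0.0675 with pseudocounts of 1 and 64, -0.47 with the 60th percentile filter, -0.0896 after quantile normalization (with and without the block) and -0.0926 with centred arrays. Leaving out 1 array gave -0.27 to -0.11, and -0.25 to -0.0369 with the block. Between the knockdown lines, leaving out 1 array gave -0.13 to 0.0504, and -0.17 to 0.0943 with the block, where it was 0.0661 without macroH2A1 shRNA replicate 1. The number of members above the signal limit was 11 at a limit of 5, 6 at a limit of 20, and 16 when shared probe sets whose symbols all match were added. H2bc21 kept a negative difference from the control line in both comparisons under every setting run, from -1.04 to -0.17 with macroH2A1 shRNA and from -1.13 to -0.25 with macroH2A2 shRNA, whereas H1f2 in the macroH2A2 shRNA line turned to 0.24 in 1 of 21 settings. The causes were not tested. With 2 arrays a line, no scale free of the MAS5 scaling and RNA primed from poly(dT), small differences and changes in total histone mRNA could not be measured.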
